A study of Homo sapiens with 6 samples.

Results

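The genes described here are 30 ribosome biogenesis and nucleolar genes, taken from the deposited gene table by symbol, out of 58735 genes listed there. All 30 were found, and all 30 were among the 14844 genes that passed the filter on low counts. RNA-seq was made from cells labelled Mum-2b, a name used for a line of human uveal melanoma, a tumour of the eye's pigmented layer. The identity of the line was not tested. The control group held 3 libraries of wild-type genotype, labelled NC1 to NC3, and the knockdown group held 3 libraries labelled shRNA1_1 to shRNA1_3, in which a short hairpin RNA lowered NELFCD. NELFCD belongs to NELF, a complex that keeps RNA polymerase II paused shortly after it starts on a gene. All knockdown libraries name the same hairpin, so the target and any other transcripts it lowers cannot be told apart. RNA was extracted with TRNzol Universal Reagent or a Quick-RNA MiniPrep kit, and which library used which is not given. The labels do not say whether the replicates were separate cultures, so p-values measure the spread between these libraries, which may be technical.

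Ribosomes are built in the nucleolus. RNA polymerase I transcribes a long precursor RNA there, small nucleolar ribonucleoproteins (snoRNPs) guide its chemical modification, and large sets of assembly factors fold, cut and package it into the small and the large subunit. Many of these factors are classed as targets of MYC, a transcription factor that binds the E-box CACGTG, and growing tumour cells are known for large nucleoli.

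NELFCD, on chromosome 20 at 58981208 to 58995133 (hg38), gave 65.5, 88.3 and 83.5 CPM (counts scaled to library size and composition) in control libraries 1, 2 and 3, the order used for every gene below. It gave 20.7, 37.4 and 40.3 CPM in the knockdown libraries, so the groups did not overlap and 41.5% of the mean level was left. Its log2 fold change was -1.30 ± 0.109 (SE, n = 3 pairs; adjusted p = 0.00046). An exact permutation test over the libraries, taken two-sided, gave p = 0.1, which 3 against 3 cannot go below. Library totals were 14306733 to 16656630 counts. Of 10 melanocyte lineage markers, 6 (PMEL, TYR, DCT, SOX10, GPR143 and SLC45A2) stayed under 1 CPM in every library, while MITF averaged 3.08 CPM in control and 3.67 CPM in knockdown. The melanocyte markers summed to 28.0 to 31.4 CPM in control and 25.6 to 29.6 CPM in knockdown. All 4 immune markers and 5 of 6 fibroblast markers were under 1 CPM throughout, with CD3E and DCN at 0. The endothelial markers summed to 125 to 165 CPM in control and 53.8 to 58.0 CPM in knockdown, with TEK, 1 of the 4, under 1 CPM. The epithelial markers summed to 686 to 1300 CPM and 1060 to 1460 CPM, with EPCAM, CDH1 and KRT19, 3 of the 5, under 1 CPM. The part of these markers in the results below was not tested.

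The 30 genes held small, mostly upward differences in the knockdown. RRP9, NOP16 and NIP7 rose by 21.0 to 27.7%, NAT10 fell by 17.4%, and the other 26 did not pass the test. The test was edgeR's quasi-likelihood test with the replicate number as a block, Benjamini-Hochberg adjusted over all 14844 genes and called at 0.05. The 4 called genes were 13.3% of the set, close to the 13.5% called among all genes tested. By direction, 10% of the set rose beside 5.48% of all genes, and 3.33% fell beside 8.01% of all genes. The share of all calls that rose was 40.6%, and 54.9% under upper-quartile scaling. Without the block, no gene passed in the whole table (0%), 954 genes had an unadjusted p under 0.05, and no member did. The smallest adjusted p of a member was then 0.787, and DESeq2 without the block also called no member.

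The direction was shared more widely than the calls. The knockdown library was above its same-numbered control library in all 3 pairs for 27 of the 30 genes, which is 90% of the set beside 25.9% of all genes tested. TCOF1 and WDR43 were higher in 1 pair, and NAT10 was lower in all 3. The median log2 fold change of the 30 genes was 0.18, with the middle of the set between 0.12 and 0.24, while the median of all genes was 0.00. By pair the members' medians were 0.28, 0.13 and 0.13, beside -0.02, 0.01 and 0.00 for all genes. Members counted in the same libraries are not independent of each other, and they were chosen with earlier results of these data known. Complete separation was rare: only PPAN had every knockdown library above every control library, which is 3.33% of the set beside 7.52% of all genes.

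**Figure D1:**
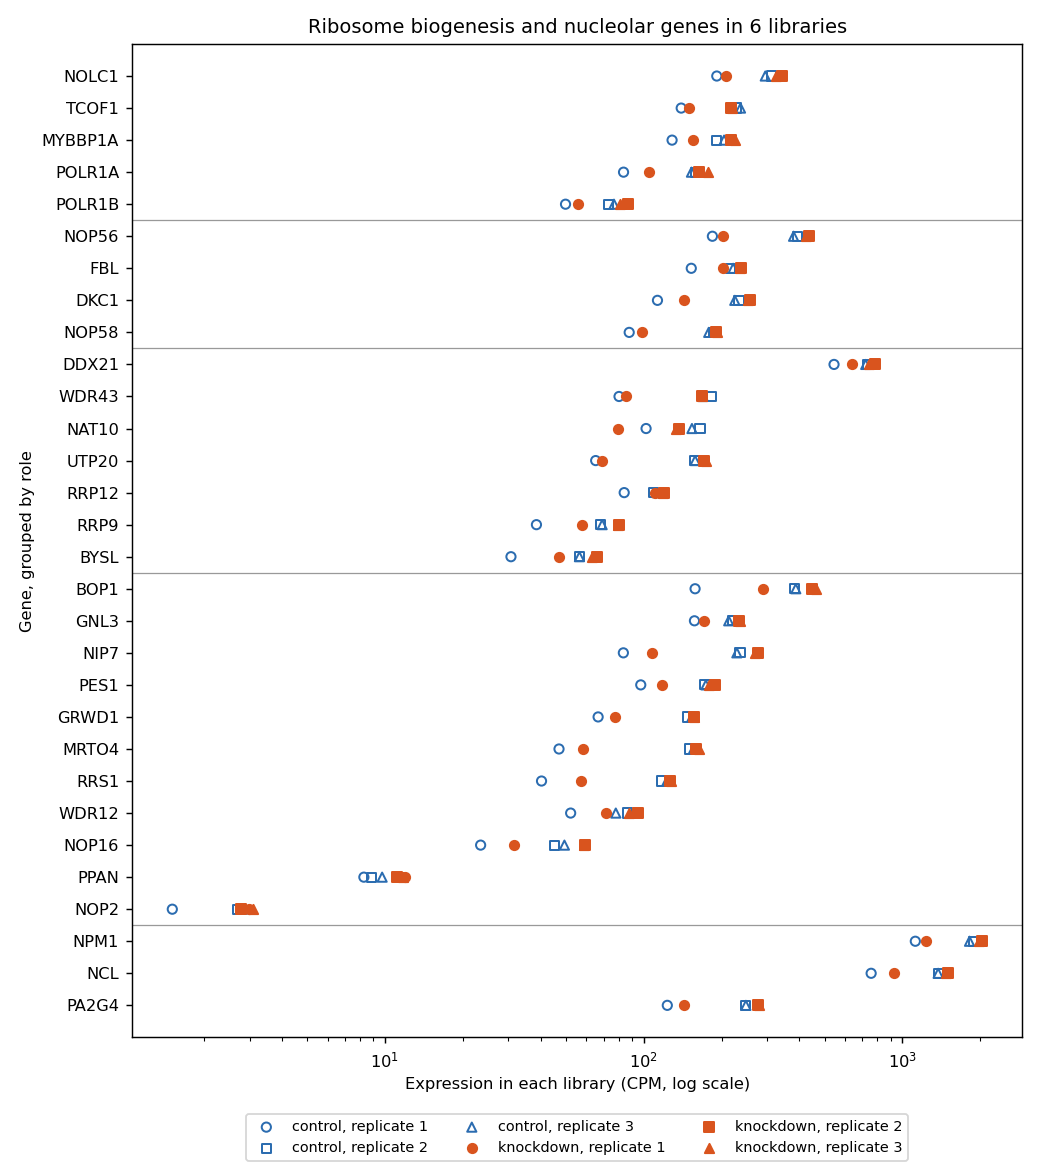
Expression of each of the 30 genes in CPM (horizontal log axis) in every library, grouped by role (vertical axis); open blue symbols are the 3 control and filled orange symbols the 3 knockdown libraries. For 27 genes both circles (replicate 1) lie left of all other symbols, and only PPAN has all filled symbols to the right of all open ones.

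Levels spanned a wide range. On the deposited FPKM scale, which divides by gene length, NPM1 was highest with 420 ± 115 FPKM (SD, n = 3) in control. NCL followed with 169 ± 53.3 FPKM and DDX21 with 132 ± 22.5 FPKM. The spreads of NCL and DDX21 overlapped, as did those of FBL at 90.5 ± 18.7 FPKM and BOP1 at 83.3 ± 36 FPKM, while those of NPM1 and NCL did not. PPAN with 3.46 ± 0.321 FPKM and NOP2 with 0.499 ± 0.159 FPKM were the lowest, and all other members lay between 7.94 and 67.1 FPKM. NOP2 and PPAN share 54.4% and 59.8% of their exon bases with another gene on the same strand (AC006064.6 and the readthrough gene PPAN-P2RY11), so their low values are uncertain.

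The E-box sequence was searched in promoter windows because it is the motif to which MYC, described below, is known to bind. RefSeq promoters of build GRCh38.p14 run from 250 bases before to 50 after each start, and 24 of the 30 genes had at least 1 window. The start here is that of the RefSeq entry, which can differ from where the gene coordinates given below begin. The motif CACGTG reads the same on both strands. It lay in a window of 12 of these 24 genes (50%), beside 29 of 122 other ribosome biogenesis genes (23.8%), 4 of 63 cytosolic ribosomal protein genes (6.35%) and 1279 of 10125 genes tested (12.6%). Counted by windows, it was in 12 of 29 windows of the members (41.4%) and in 2548 of all 35116 (7.26%). All 12 matches began within 50 bases of the start, beside 36.9% of 2821 matches in all windows. The sequences show that the match recurs in different surroundings: 30 bases around each are given 5′ to 3′ on the gene's strand, with the motif in capitals.
RRP9: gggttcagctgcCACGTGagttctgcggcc
NAT10: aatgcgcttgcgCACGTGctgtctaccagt
BYSL: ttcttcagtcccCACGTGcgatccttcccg
DDX21: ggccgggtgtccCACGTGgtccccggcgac
UTP20: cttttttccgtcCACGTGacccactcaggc
WDR43: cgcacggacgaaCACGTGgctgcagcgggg
FBL: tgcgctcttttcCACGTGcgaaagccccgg
MYBBP1A: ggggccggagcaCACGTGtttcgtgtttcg
GNL3: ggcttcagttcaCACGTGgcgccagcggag
MRTO4: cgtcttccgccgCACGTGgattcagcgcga
PES1: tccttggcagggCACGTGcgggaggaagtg
NOP2: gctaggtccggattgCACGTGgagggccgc

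These stretches lie at chr3:51941892-51941921 (minus strand) for RRP9, chr11:34105602-34105631 (plus) for NAT10, chr6:41921515-41921544 (plus) for BYSL and chr10:68956604-68956633 (plus) for DDX21. Those of UTP20, WDR43 and FBL lie at chr12:101280083-101280112 (plus), chr2:28894658-28894687 (plus) and chr19:39846356-39846385 (minus). MYBBP1A has its stretch at chr17:4555340-4555369 (minus), GNL3 at chr3:52686026-52686055 (plus) and MRTO4 at chr1:19251807-19251836 (plus). Those of PES1 and NOP2 are at chr22:30591880-30591909 (minus) and chr12:6568242-6568271 (minus). The first base of the motif stood between 31 bases before the start (DDX21) and 35 bases after it (NOP2). Counted from the RefSeq start, the motif began 5 bases before it in RRP9, which rose, and 15 bases before it in NAT10, which fell. The listed gene coordinates of NAT10 begin at 34105602, so by those its motif lies inside the gene. The 12 genes with the motif had a median log2 fold change of 0.14 in the knockdown, with 1 that rose and 1 that fell. The 12 genes without it had a median of 0.19, with 2 that rose, NOP16 and NIP7. A match is a description of the letters only, and its absence from a window says nothing of binding.

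Among RNA polymerase I and its cofactors, none of 5 genes passed the test, and their median log2 fold change was 0.16. POLR1A, the largest subunit of the polymerase, had 83.6, 159 and 153 CPM in control and 105, 164 and 177 CPM in knockdown. Its groups overlapped, and its log2 fold change was 0.19 (adjusted p = 0.11). POLR1B, the second largest subunit, went from 49.9, 73.0 and 76.8 to 56.0, 87.0 and 80.9 CPM (log2 fold change 0.16, adjusted p = 0.14). MYBBP1A, a nucleolar protein that binds MYB, was nearest the threshold, with 129, 191 and 205 CPM in control and 155, 218 and 225 CPM in knockdown (0.20, adjusted p = 0.060). NOLC1, a nucleolar phosphoprotein that works with TCOF1, had pair ratios of 0.12, 0.14 and 0.13 on the log2 scale. TCOF1, the treacle protein altered in Treacher Collins syndrome, gave 140, 228 and 237 CPM in control and 150, 218 and 219 CPM in knockdown. Its log2 fold change was -0.03, with a 95% interval from -11.2% to 8.70%.

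The snoRNP proteins were alike in direction, with 4 of 4 higher in all 3 pairs, none past the test and a median of 0.18. FBL, the methyltransferase of box C/D snoRNPs, had 153, 216 and 222 CPM in control and 202, 239 and 236 CPM in knockdown. Its log2 ratio was 0.40 in pair 1 and 0.14 and 0.09 in the others. The core proteins NOP56 and NOP58 had log2 fold changes of 0.15 (adjusted p = 0.11) and 0.10 (adjusted p = 0.31). DKC1, the pseudouridine synthase of box H/ACA snoRNPs, had 113, 233 and 225 CPM in control and 143, 257 and 252 CPM in knockdown (0.21, adjusted p = 0.062). Several members, called host genes here, also hold snoRNA genes inside their own gene bodies. They were 7 of 30 (23.3%), namely NOP56, NOP58, DKC1, WDR43, PPAN, GNL3 and NCL, with 25 snoRNA genes in all. Among protein-coding genes in GENCODE 29, 274 of 19951 were host genes (1.37%). The 19951 genes were counted whether tested here or not. Of these 7 host genes, none passed the test, beside 13.5% of all genes tested, and 7 genes are too few to set them apart from that share.

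In small subunit processing, RRP9 rose and NAT10 fell, and the median of the 7 genes was 0.13. RRP9, a protein of the U3 snoRNP that is needed for early cuts, is on chromosome 3 at 51933430 to 51941941. It had 38.5, 68.2 and 69.1 CPM in control and 57.6, 80.6 and 79.8 CPM in knockdown. Knockdown library 1 lay below control libraries 2 and 3, so the groups overlapped, although each pair was higher in the knockdown. The mean went from 58.6 ± 17.4 to 72.7 ± 13.0 CPM (SD, n = 3), and the fitted change was 26.3% (95% interval 10.4 to 44.4%; log2 fold change 0.34 ± 0.085 SE, adjusted p = 0.034). Leaving out replicate pair 2 ended this call (adjusted p = 0.081), as did DESeq2 with the block (0.060) and log2(FPKM + 1) with limma (0.080).

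NAT10, the acetyltransferase that places N4-acetylcytidine on ribosomal RNA of the small subunit, was the only member that fell. The gene is on chromosome 11 at 34105602 to 34147670. Control had 102, 165 and 154 CPM and knockdown had 79.4, 137 and 134 CPM. Each knockdown library was below its own control, by 0.36, 0.27 and 0.20 on the log2 scale, while the groups overlapped because both replicate 1 libraries were low. The mean went from 140 ± 33.5 to 117 ± 32.5 CPM (SD, n = 3; log2 fold change -0.28 ± 0.063 SE, adjusted p = 0.024, 95% interval -25.2 to -8.75%). The call ended without replicate pair 2 (adjusted p = 0.15) or pair 3 (adjusted p = 0.060), and with log2(FPKM + 1) and limma (0.055).

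The other 5 small subunit genes did not pass. BYSL, which binds the maturing small subunit, was close, with 30.7, 56.5 and 56.5 CPM in control and 47.1, 65.8 and 63.3 CPM in knockdown (0.32, adjusted p = 0.055). RRP12, an export factor of the small subunit precursor, had 84.1, 109 and 112 CPM in control and 111, 120 and 118 CPM in knockdown (0.20, adjusted p = 0.11). In BYSL and RRP12 the replicate 1 pair carried the largest ratio, 0.62 and 0.40 on the log2 scale. DDX21, an RNA helicase of the nucleolus, had a log2 fold change of 0.13 (adjusted p = 0.20), and UTP20, a scaffold of the small subunit processome, 0.11 (adjusted p = 0.24). WDR43, a processome protein, had 80.3, 183 and 170 CPM in control and 85.1, 168 and 169 CPM in knockdown. Its interval ran from -10.9% to 9.30%.

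**Figure D2:**
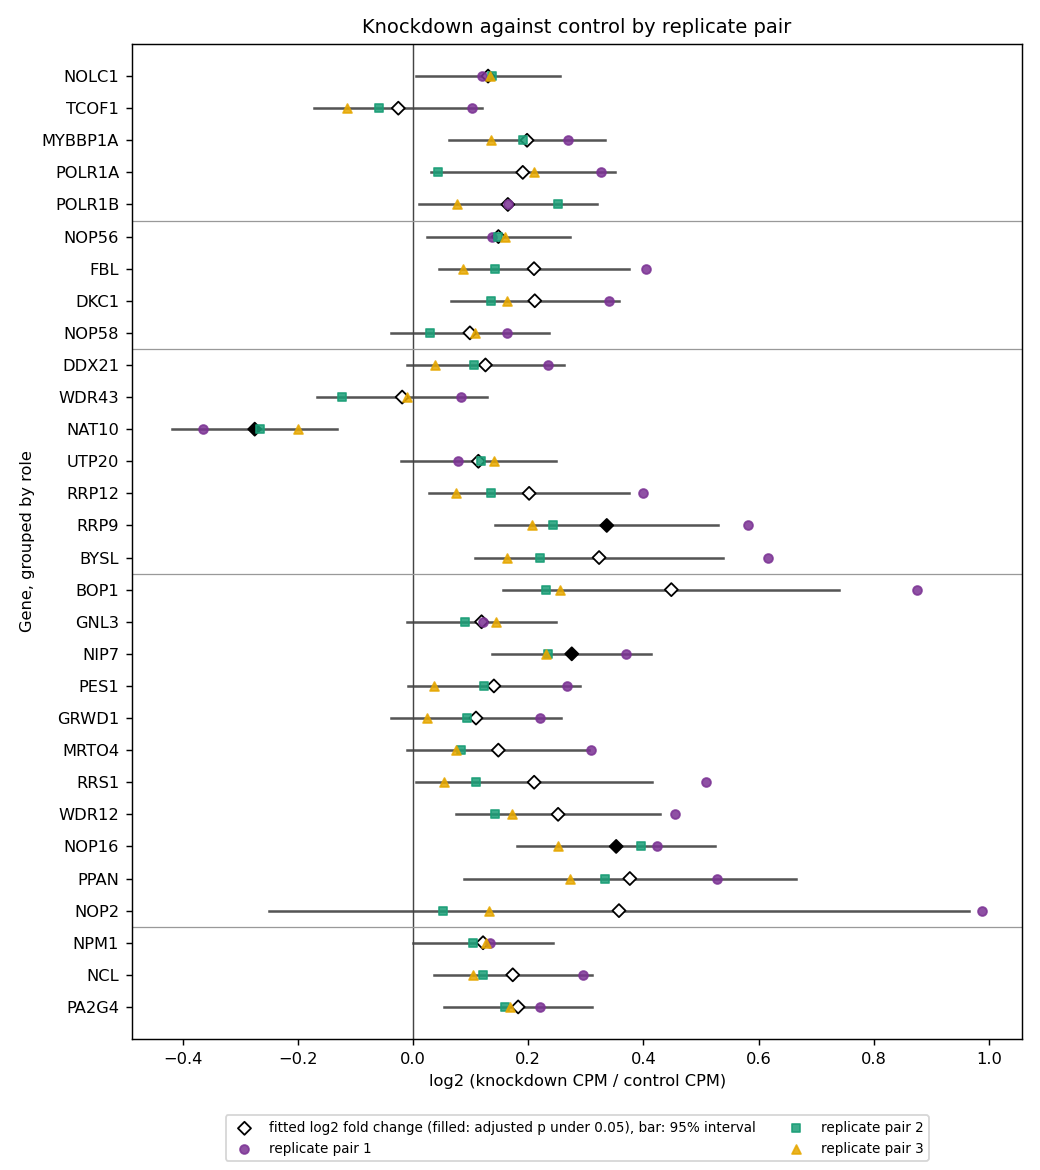
Log2 ratio of knockdown to control CPM (horizontal axis) for each gene (vertical axis, by role) in replicate pairs 1 (circles), 2 (squares) and 3 (triangles), with the fitted log2 fold change (diamonds, filled where adjusted p is under 0.05) and its 95% interval (bars). Only NAT10 has all 3 pairs below 0, and the pair 1 circle is the rightmost of the 3 pairs for 24 of 30 genes.

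Large subunit assembly was the largest group, with 11 of 11 genes higher in all 3 pairs, 2 that rose and a median log2 fold change of 0.25. NOP16, a nucleolar protein of the early large subunit precursor, lies on chromosome 5 at 176383938 to 176388975. It had 23.4, 45.2 and 49.4 CPM in control and 31.4, 59.5 and 58.8 CPM in knockdown. Knockdown libraries 2 and 3 were above all control libraries, and knockdown library 1 was above control library 1 only. The mean went from 39.4 ± 13.9 to 49.9 ± 16.0 CPM (SD, n = 3), a fitted change of 27.7% (95% interval 13.3 to 43.9%; log2 fold change 0.35 ± 0.076 SE, adjusted p = 0.019). Without replicate pair 2 its adjusted p was 0.13, and with DESeq2 and the block 0.057.

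NIP7, a factor for processing of the precursor RNA, is on chromosome 16 at 69337996 to 69343111. It had 83.5, 236 and 229 CPM in control and 108, 277 and 269 CPM in knockdown. Pairs 2 and 3 gave the same ratio of 0.23 on the log2 scale and pair 1 gave 0.37. The mean went from 183 ± 86.1 to 218 ± 95.5 CPM (SD, n = 3), a fitted change of 21.0% (log2 fold change 0.28 ± 0.061 SE, adjusted p = 0.021). It lost its call without replicate pair 2 (adjusted p = 0.13) or pair 3 (adjusted p = 0.094), and with log2(FPKM + 1) and limma (0.055). COG8, at 36.2 CPM on the opposite strand, overlaps 20.2% of the exon bases of NIP7, and ARL10, at 0.552 CPM, overlaps 19.9% of those of NOP16. Whether counting used strand is not given, so reads of such neighbours cannot be told apart.

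The PeBoW complex, formed by PES1, BOP1 and WDR12, was uneven. BOP1 had the highest log2 fold change of the 30 genes, 0.45 ± 0.124 (SE), without passing the test (adjusted p = 0.056). Control held 158, 383 and 387 CPM and knockdown held 290, 449 and 462 CPM. Pair 1 had a log2 ratio of 0.87, against 0.23 and 0.26 in the other pairs. BOP1 did pass with DESeq2 and the block (adjusted p = 0.0057), limma-voom and the block (0.033), no filter on low counts (2.8e-08) and a mean of at least 5 CPM (0.049), and with any 1 replicate left out, where its log2 fold change was 0.24 without replicate 1 and 0.56 and 0.54 without replicates 2 and 3. WDR12 went from 52.2, 86.5 and 78.0 to 71.6, 95.4 and 87.9 CPM (0.25, adjusted p = 0.066), and PES1 from 97.5, 173 and 174 to 117, 188 and 178 CPM (0.14, adjusted p = 0.19).

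PPAN, the Peter Pan homologue of the large subunit pathway, was the gene without overlap between groups. It had 8.29, 8.85 and 9.76 CPM in control and 12, 11.1 and 11.8 CPM in knockdown, from 121 to 184 counts a library, and a log2 fold change of 0.38 (adjusted p = 0.084). NOP2, a cytosine methyltransferase of the large subunit RNA, rested on 22, 38 and 45 counts in control and 45, 46 and 45 counts in knockdown. Its interval, -15.9% to 95.3%, was the widest of the set. Among the others, RRS1, which recruits the 5S particle, had 40.3, 117 and 123 CPM in control and 57.4, 126 and 128 CPM in knockdown (0.21, adjusted p = 0.16). MRTO4, a relative of a ribosomal stalk protein, GNL3 (nucleostemin) and the histone-binding GRWD1 had log2 fold changes of 0.15, 0.12 and 0.11, with adjusted p of 0.19, 0.20 and 0.30.

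The multifunctional nucleolar proteins NPM1, NCL and PA2G4 were higher in all 3 pairs without passing the test. NPM1 (nucleophosmin) had 1122, 1890 and 1817 CPM in control and 1231, 2030 and 1984 CPM in knockdown, with even pair ratios of 0.13, 0.10 and 0.13 on the log2 scale (0.12, adjusted p = 0.16). NCL (nucleolin) had 757, 1377 and 1375 CPM in control and 929, 1498 and 1477 CPM in knockdown (0.17, adjusted p = 0.092). PA2G4, which binds ribosomes and the receptor ERBB3, had 123, 248 and 248 CPM in control and 144, 277 and 279 CPM in knockdown (0.18, adjusted p = 0.067). NPM1 and PA2G4 have 45 and 5 named pseudogene copies, which together received 2.07% and 1.88% of as many counts as the genes themselves. For 24 of the 30 members the 95% interval lay within 0.5 of 0 on the log2 scale.

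Replicate number set the levels apart more than group did, with a median log2 difference of -0.73 for replicate 1 beside 0.18 for the knockdown. In replicate 1 of both groups, 28 of the 30 genes were lower than in replicates 2 and 3 by edgeR's test of a replicate 1 term, beside 30.2% of all genes tested. NOP2 and PPAN were the exceptions, and no member was higher. The replicate difference ran from -0.04 for PPAN to -1.58 for MRTO4, which left a median of 60.5% of the level of replicates 2 and 3. For 27 genes both replicate 1 libraries were below every other library. The 30 genes together took 0.475, 0.844 and 0.837% of counts in control and 0.589, 0.916 and 0.908% in knockdown. The labels name no feature that sets replicate 1 apart, and what accompanies it was not tested.

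The term that sets the knockdown effect in pair 1 against that in pairs 2 and 3 (an interaction) was called above 0 for 8 of the 30 genes (26.7%), beside 5.06% of all genes with a larger and 7.96% with a smaller effect in pair 1. These were BOP1, FBL, RRS1, NCL, BYSL, RRP12, RRP9 and DDX21, and no member was called below 0. Pair 1 is 1 control and 1 knockdown library, so the error of this term comes from replicates 2 and 3 alone, the lone libraries are assumed to vary as those do, and the calls do not show that the effect differs in replicate 1 beyond these libraries. The term was also above 0 for 44 of 79 cytosolic ribosomal protein genes. With no filter on low counts the members' number was 4. Without replicate 1, 19 of the 30 members rose, beside 12.7% of all genes. NAT10 and TCOF1 then fell by 0.23 and 0.09 on the log2 scale, beside 14.9% of all genes that fell. Without replicate 2, 1 member rose, BOP1, and none fell, beside 2.01% and 4.09% of all genes. The members' median log2 fold change was 0.12 without replicate 1 and 0.19 without replicate 2. Such fits hold 2 pairs, so little of each gene's own spread enters its p-value. Across the 30 genes the log2 fold change and the replicate 1 difference had a Pearson r of 0.13 and a Spearman rho of 0.20, given as a description since all points share the same 6 libraries.

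The ribosomal proteins themselves were also described along the replicate difference. Of 79 cytosolic ribosomal protein genes, 42 were higher and 6 lower in replicate 1, with a median log2 difference of 0.17. Of all genes tested, 31.6% were higher and 30.2% lower. In the knockdown 8 of the 79 rose (10.1%) and RPL22 fell (1.27%), beside 5.48% and 8.01% of all genes. The share called was 11.4%, beside 13.5% of all genes, and the median log2 fold change was 0.12. In all 3 pairs 49 were higher (62%), beside 25.9% of all genes. Their pair medians were 0.23, 0.03 and 0.07.

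MYC, on chromosome 8 at 127735434 to 127741434, rose in the knockdown. It had 283, 293 and 303 CPM in control and 404, 354 and 380 CPM in knockdown, with no overlap. The mean went from 293 ± 9.71 to 379 ± 25.1 CPM (SD, n = 3), a fitted change of 29.2% (95% interval 16.7 to 43.1%; log2 fold change 0.37 ± 0.065 SE, adjusted p = 0.0091). Without the block the adjusted p was 0.66 with edgeR and 0.091 with DESeq2. Its level in replicate 1 differed from that in replicates 2 and 3 by 0.04 on the log2 scale (adjusted p = 0.64). A list named the MYC network held 12 genes with MYC included, of which 10 were tested. It is made of MYC and related factors of unlike roles and is not a list of MYC targets. MYC was the 1 that rose and 2 fell (10% and 20%), beside 5.48% and 8.01% of all genes. The median log2 fold change of the 10 was -0.03, and 4 were above 0.

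In 142 other genes of the pathway, from lists by role, 23 rose and 1 fell, which is 16.2% and 0.704%, or 16.9% called, and the median log2 fold change was 0.13. The share called was near the 13.5% of all genes, of which 5.48% rose and 8.01% fell. All 142 were tested, and 83 of them (58.5%) were higher in all 3 pairs, beside 25.9% of all genes. In replicate 1, 118 were lower and 9 higher, beside 30.2% and 31.6% of all genes. None of the 142 passed without the block with edgeR. Of the 12 genes named below that rose, none passed without replicate 2 (adjusted p = 0.054 to 0.23). With DESeq2 and the block 8 of the 12 lost their call (RRN3, RIOK1, GAR1, PIH1D1, NLE1, EXOSC5, EXOSC7 and EXOSC4), and without replicate 3, 5 did (RRN3, GAR1, PIH1D1, EXOSC7 and EXOSC4). With log2(FPKM + 1) and limma 9 did, and PIH1D1 also lost it with RLE scaling (0.057) and with no filter (0.083).

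RNA polymerase I machinery had 1 of 13 genes that rose: RRN3, the factor that brings the polymerase to its promoter, with a log2 fold change of 0.28 (adjusted p = 0.029). The subunit TWISTNB had 0.16 and the promoter factor TAF1D 0.02, neither past the test. In the small subunit processome 7 of 42 rose and none fell by the test. The lowest log2 fold change in this list was -0.99, larger in size than any rise, and it did not pass. In all 3 pairs 28 of the 42 were higher and 4 were lower. RIOK1, a kinase of late maturation, PNO1, a partner of the endonuclease NOB1, and the helicase DDX10 had the highest log2 fold changes of the 7, 0.39, 0.37 and 0.35. UTP4 at 0.18 and NOB1 at -0.003 did not pass.

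Of 12 snoRNP assembly and H/ACA proteins, 3 rose: the core proteins NHP2 at 0.40 (adjusted p = 0.017) and GAR1 at 0.33 (adjusted p = 0.039), and the assembly factor PIH1D1 at 0.23 (adjusted p = 0.0496). The ATPases RUVBL1 and RUVBL2 had 0.24 and 0.23 and did not pass. DKC1, the catalytic partner of NHP2 and GAR1, had 0.21. Among 50 large subunit factors 9 rose and 1 fell. DDX18, a helicase, rose from 134 to 170 CPM (0.36, adjusted p = 0.0098) and NLE1, a partner of the ATPase MDN1, had 0.40 (adjusted p = 0.032), while MDN1 at 0.07 and DDX24 at 0.15 did not pass.

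RRP1B, a nucleolar protein of the RRP1 family, was the gene that fell, from a mean of 111 CPM in control to 61.2 CPM in knockdown. Its log2 fold change was -0.93 ± 0.105 (SE, adjusted p = 0.0015), with pair ratios of -1.31, -0.74 and -0.80. Among 15 genes of the RNA exosome, which trims precursor RNA, EXOSC5, EXOSC7 and EXOSC4 rose (0.40, 0.34 and 0.32), and NOP53 at 0.10 and MTREX at 0.001 did not pass. The median of the 15 was 0.02, and 6 of them were higher and 4 lower in all 3 pairs. None of 10 genes listed under ribosomal RNA modification, which are not all enzymes, passed, with a median of 0.07, DIMT1 at 0.17 and TRMT112 at 0.04.

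**Figure D3:**
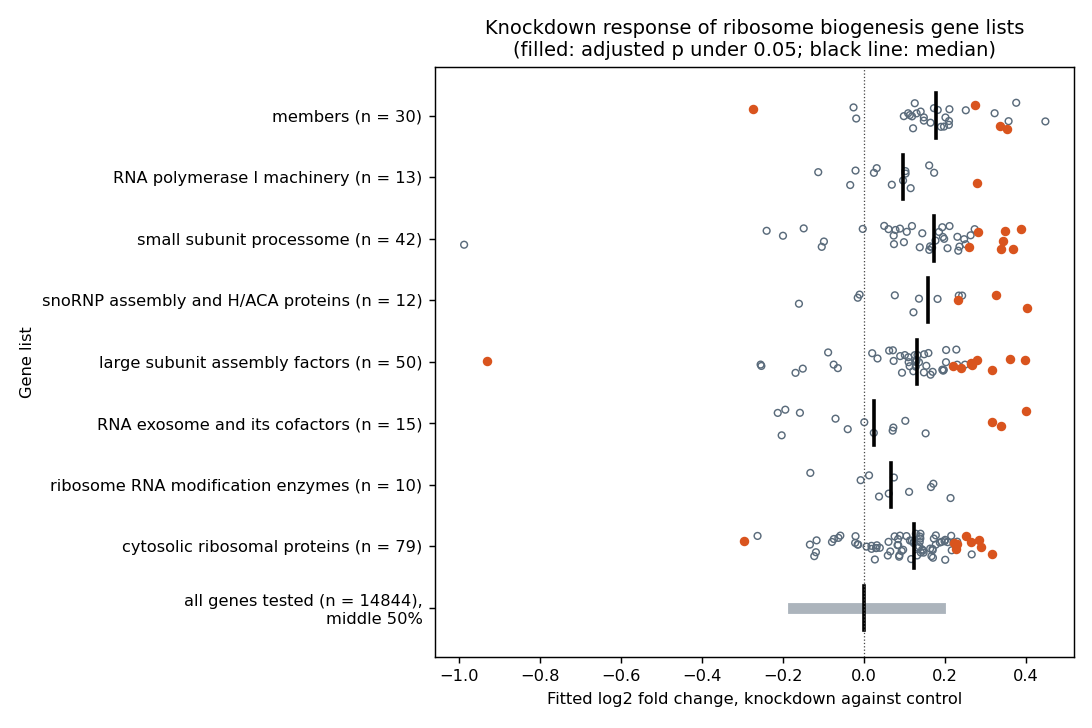
Fitted log2 fold change in the knockdown (horizontal axis) of each gene in the 30-gene set, 6 further lists of the pathway and the cytosolic ribosomal proteins (vertical axis); filled points have an adjusted p under 0.05, black lines are medians, and the grey bar is the middle 50% of all 14844 genes tested. The medians of the lists lie between 0.02 and 0.18, beside 0.00 for all genes.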

How the data were processed

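The authors deposited a table of raw counts per gene and a table of FPKM, per the file headers, made on hg38 per the submitters' processing notes. Aligner, counter and use of strand are not given in the sources used here. Counts were tested with edgeR 4.0.16 (limma 3.58.1, R 4.3.3): filterByExpr, TMM scaling (factors 0.989 to 1.034), quasi-likelihood F-tests with robust estimation, and Benjamini-Hochberg adjustment. CPM used TMM-scaled library sizes. Standard errors came from log2 fold change and F, and 95% intervals from the t distribution.

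The block is the replicate number, since the comparison was posed per pair. Libraries with the same title number deviated together from their group means (correlations across genes 0.878, 0.741 and 0.732). Deviations cancel out within a group, so the difference of replicate 1 also enters the values of replicates 2 and 3. These correlations therefore cannot show that replicates 2 and 3 are matched across groups, and libraries of unlike number were not compared. The labels do not say what a number shares. Gene coordinates equal GENCODE 29 for 58724 of 58735 genes.

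The 30 genes and all lists were chosen with earlier results of these data known, and the replicate 1 terms because an earlier analysis had seen that difference. Named outside the set were NELFCD, MYC and, per pathway list, up to 3 called genes of largest change and 2 uncalled of highest CPM. RPL22 was named after its values were seen. Alternatives were DESeq2 1.42.0, limma-voom, other scalings, filters and terms, FPKM with a pseudocount, and leaving out each pair. The script was tested on simulated data.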

Additional observations from a re-analysis of the deposited data

How the results depend on the processing

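The number of members that rose (3) was 0 without the replicate block with edgeR or DESeq2, 9 with upper-quartile scaling, 6 with no filter, 6 with a mean of at least 5 CPM, 13 with a term for replicate 1 in place of the block, 1 with log2(FPKM + 1) and 1 with log2(FPKM + 0.1), and 1 to 19 with each replicate left out. The number that fell (1) was 0 without the block with either tool, 0 with both FPKM settings and 0 to 2 with a replicate left out. Over all genes, 813 rose: the number was 0 without the block (50 with DESeq2), 446 with DESeq2 and the block, 1379 with the replicate 1 term, 257 and 294 with FPKM and a pseudocount of 1 and 0.1, and 307 to 1877 with a replicate left out. The 1189 that fell became 0 without the block (111 with DESeq2), 398 and 481 with FPKM, and 625 to 2213 with a replicate left out. Without the block NELFCD had a log2 fold change of -1.27 with edgeR (adjusted p = 0.53) and -1.28 with DESeq2 (adjusted p = 0.013). The members whose interaction with pair 1 was called (8) were 4 with no filter. The cause of these shifts was not tested.

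The members' median log2 fold change stayed between 0.12 and 0.22 in all 14 alternatives, and 26 to 29 members were above 0. Genes near 0 changed sign: TCOF1 had 0.0211 and WDR43 0.0273 with upper-quartile scaling, and -0.0890 to 0.0146 and -0.0687 to 0.0332 with a replicate left out. NOB1 had 0.0445 with upper-quartile scaling, 0.0122 with at least 5 CPM and -0.0387 to 0.0290 with a replicate left out. MTREX had -0.00893 with DESeq2 and the block, -0.00704 without it, -0.00890 with RLE scaling, -0.0142 with no filter, -0.0168 and -0.0177 with FPKM, and -0.0220 to 0.00823 with a replicate left out; TRMT112 had -0.00590 to 0.0667. Upper-quartile scaling moved the median of all genes by 0.048. Depth limits NOP2 (22 to 46 counts a library): in control library 1 the 95% Poisson interval of its 1.51 CPM ran from 0.945 to 2.28 CPM, covering counting error only. The common coefficient of biological variation was 8.17% with the block (2 residual degrees of freedom) and 32.6% without it (4 residual degrees of freedom).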
